A study of Arabidopsis thaliana with 12 samples.

Results

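Glutathione S-transferases (GSTs) were followed in leaf RNA of 4 *Arabidopsis thaliana* genotypes as all genes whose description in the deposited table contains that name. The rule found 45 of 18884 genes, and all 45 passed the filter on low counts. By description or symbol 20 belong to the tau class, 11 to phi, 3 to theta, 1 to zeta and 1 to lambda, and 9 others carry no class. Relatives filed under other descriptions, such as the dehydroascorbate reductases, are not among them.

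GSTs join the tripeptide glutathione to reactive or toxic small molecules, which can then be pumped into the vacuole, and some bind or carry compounds without reacting with them. The tau and phi classes are the large plant classes and include many genes that are known to respond to herbicides, oxidative stress, salicylic acid and pathogens. Zeta enzymes work in tyrosine breakdown, theta enzymes have peroxidase activity, and lambda enzymes transfer thiol groups. In leaves, members of the phi class also take part in making camalexin, the main indole defence compound of this species, and in moving flavonoid pigments.

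The plants were 5 weeks old and untreated, raised in soil under a 10 h day (22 °C, 60% humidity), with 3 libraries of polyadenylated leaf RNA per genotype. The sid2-1 line is pTPR1:TPR1-GFP sid2-1, whose mutation affects ICS1, an enzyme that makes most of the salicylic acid formed on infection. The eds1-2 line is pTPR1:TPR1-GFP eds1-2, whose mutation affects EDS1, a hub of signalling by TIR-type immune receptors. TPR1-GFP carries the same transgene, a GFP-tagged copy of the transcriptional corepressor TPR1 under its own promoter, without either mutation, and Col-0 is the wild type without the transgene. Both double lines carry the transgene as well as the mutation, and single mutants without it were not analysed here. The design text speaks of independent experiments but ties no replicate number to one, so the p-values speak only of the spread among libraries.

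Library totals ran from 19628974 to 32018583 counts, and levels are given as CPM, counts scaled to the depth of each library with sizes adjusted by TMM. *TPR1* counts came to 776 to 1305 CPM in the sid2-1 line, 990.2 to 1327 CPM in the eds1-2 line and 1539 to 1748 CPM in the TPR1-GFP libraries, against 68.3 to 74.1 CPM in Col-0, and these counts do not separate the transgene from the native gene. *EDS1* ranged over 128.5 to 156 CPM in the sid2-1 line, 13.5 to 16.0 CPM in the eds1-2 line, 129.8 to 173 CPM in TPR1-GFP plants and 29.6 to 60.8 CPM in Col-0. *ICS1* ranged over 132 to 157 CPM in the sid2-1 line, 23.3 to 30.03 CPM in the eds1-2 line, 207.9 to 368 CPM in TPR1-GFP plants and 10.3 to 49.9 CPM in Col-0, and a count of its transcript does not check the sid2-1 label. All 3 mesophyll markers were present, with summed levels of 20600 to 22260 CPM in the sid2-1 line, 29890 to 37690 CPM in the eds1-2 line, 15630 to 19530 CPM in TPR1-GFP plants and 35930 to 44290 CPM in Col-0. The 3 vascular markers summed to 235.8 to 254 CPM in the sid2-1 line, 361.3 to 406.7 CPM in the eds1-2 line, 224.1 to 245.5 CPM in TPR1-GFP plants and 212.2 to 296.5 CPM in Col-0. The 5 epidermal, guard cell and trichome markers summed to 289.4 to 313 CPM in the sid2-1 line, 247.5 to 364.7 CPM in the eds1-2 line, 244.1 to 297.9 CPM in TPR1-GFP plants and 368.4 to 513.4 CPM in Col-0. Of the root markers only *PYK10* was listed, at 0.0953 to 8.79 CPM over all libraries. These differences in leaf markers run alongside the GST results, and their part in them was not tested. In bulk RNA, fewer cells of a type and less RNA per cell cannot be told apart.

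The summed GST level and its make-up differed between the genotypes. Phi transcripts summed to 4170, 3843 and 4228 CPM in the sid2-1 line, 1563, 1917 and 1661 CPM in the eds1-2 line, 2878, 3960 and 3427 CPM in TPR1-GFP plants and 2253, 1550 and 1718 CPM in Col-0. The phi sums of the sid2-1 line and TPR1-GFP thus all lay above those of the eds1-2 line and Col-0. Tau transcripts summed to 829.9, 804 and 844 CPM in the sid2-1 line, 1426, 1418 and 1451 CPM in the eds1-2 line, 780.3, 789 and 712 CPM in TPR1-GFP plants and 1034, 809 and 1227 CPM in Col-0. The eds1-2 line had the highest tau sums of the 4 genotypes in every library, and the 3 TPR1-GFP libraries lay below all 3 Col-0 libraries. All 45 genes together took 0.564 to 0.610% of counts in the sid2-1 line, 0.351 to 0.392% in the eds1-2 line, 0.490 to 0.612% in TPR1-GFP and 0.280 to 0.369% in Col-0. Sums follow the abundant genes: *GSTF9* held the largest share of the phi sum and *GSTU19* of the tau sum. The total of all 45 takes in *AT1G30230*, an elongation factor 1B gene with a GST-like domain by its description. Its mean ran from 212 CPM in the eds1-2 line to 271 CPM in the sid2-1 line. With 3 libraries against 3, no exact test of a sum can give a two-sided p under 0.1, so none was made.

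**Figure D1:**
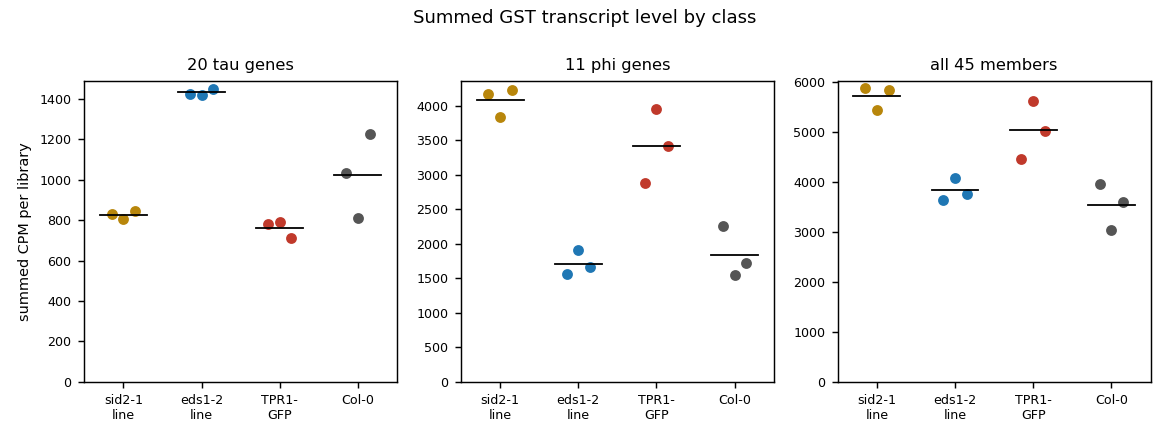
Summed CPM per library (vertical axis, from 0) of the 20 tau genes, the 11 phi genes and all 45 members in the 4 genotypes (horizontal axis); points are libraries and lines are means of 3. Phi sums averaged 4080 and 3421 CPM in the sid2-1 line and TPR1-GFP, above 1714 CPM in the eds1-2 line and 1840 CPM in Col-0, while tau sums averaged 1432 CPM in the eds1-2 line, above 826, 760 and 1023 CPM in the other 3 genotypes.

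Per kilobase of exon, the phi gene *GSTF9* stood highest of all members, at 1069.6 CPM per kb in the sid2-1 line, 767 in the eds1-2 line, 1154 in TPR1-GFP and 619.7 in Col-0. In Col-0 it was followed by *GSTU19* with 349 CPM per kb, an enzyme known for high activity on model substrates, then *GSTF10* with 263, *GSTF2* with 239.5 and *GSTU20* with 233. In Col-0 the CPM of *GSTF2* and *GSTU20* varied widely between libraries, at 531, 281 and 245 and at 304, 118 and 379, so their places in this order are not separated by more than their spread. *GSTU19* came next in the eds1-2 line with 428 CPM per kb and *GSTU20* after it with 347, and in TPR1-GFP *GSTF2* came next with 521. At the low end stood *GSTU11*, *AT5G44990* and *GSTF5* in Col-0, each below 0.1 CPM per kb.

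In TPR1-GFP against Col-0, 28 of the 45 genes changed, 19 higher and 9 lower, which is 62.2% of them, beside 53.9% of all 18877 genes tested (edgeR quasi-likelihood test, Benjamini-Hochberg adjusted p under 0.05). Over all genes 27.5% were higher and 26.4% lower, and libraries of both groups did not overlap in 31 members, beside 61.1% of all genes. Rises of at least 1 log2 unit were made by 12 members and falls of that size by 4, beside 12% and 10.1% of all genes. The median log2 change was 0.22 over the 45 genes and 0.01 over all genes tested. Without scaling for library composition the median of all genes stood at 0.26, and 23 members were then higher and 2 lower. Over all genes 8349 were then higher and 3098 lower, against 5192 and 4979 with TMM scaling. Both counts of members thus depend on the scaling, and most of their lower calls hold only relative to the bulk of other transcripts.

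Among the tau genes 8 rose and 6 fell, with a median log2 change of −0.34, and the largest rises exceeded the largest falls. *GSTU10* had 6.54, 12.3 and 15.2 CPM in the TPR1-GFP libraries, against 0.95, 0.0497 and 0.283 CPM in Col-0, a 26.7-fold rise (log2 change 4.74, SE 0.52, adjusted p = 3.21e-05). *GSTU8* had 4.78, 7.59 and 8.32 CPM in the TPR1-GFP libraries, against 1.05, 0.298 and 0.0808 CPM in Col-0 (log2 change 3.90, SE 0.50, adjusted p = 8.24e-05). *GSTU9* had 1.55, 1.80 and 2.27 CPM in the TPR1-GFP libraries, against 0.450, 0.149 and 0.121 CPM in Col-0 (log2 change 2.97, SE 0.39, adjusted p = 8.7e-05). In these 3 genes every TPR1-GFP library lay above every Col-0 library, and Col-0 replicate 1 was the highest of its group. Without that library the log2 changes of *GSTU10*, *GSTU8* and *GSTU9* were 5.96, 5.22 and 3.75. The same library had 49.9 CPM of *ICS1*, against 26.6 and 10.3 CPM in the other Col-0 libraries, and the part of that difference in the GST levels was not tested.

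*GSTU11* was near the limit of detection in Col-0, with 100 counts over the 3 TPR1-GFP libraries against 2 over the 3 Col-0 libraries. That is a ratio of 36.9, with a 95% interval of 9.96 to 309 that covers counting error only (adjusted p = 0.000348). *GSTU24*, whose enzyme is known for detoxifying the explosive trinitrotoluene, had 0.755, 2.09 and 1.11 CPM in the TPR1-GFP libraries, against 0.250, 0.348 and 0.283 CPM in Col-0 (log2 change 2.17, SE 0.43, adjusted p = 0.00124). The groups did not overlap in either gene. *GSTU4* had 4.13, 9.08 and 5.81 CPM in the TPR1-GFP libraries, against 4.15, 0.745 and 0.445 CPM in Col-0 (log2 change 1.87, SE 0.59, adjusted p = 0.0187). Its groups overlapped through Col-0 replicate 1, without which the log2 change was 3.44, and its call was lost without TPR1-GFP replicate 2 (adjusted p = 0.0782), Col-0 replicate 2 (0.0637) or Col-0 replicate 3 (0.0563), and in a fit of these 2 groups alone (0.0733).

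*GSTU27* had 81.7, 90.3 and 82.2 CPM in the TPR1-GFP libraries, against 40.7, 31.6 and 32.7 CPM in Col-0, a 2.42-fold rise with no overlap (log2 change 1.28, SE 0.11, adjusted p = 6.54e-06). *GSTU16* rose least of the 8 (log2 change 0.57, SE 0.20, adjusted p = 0.0301), and its call was lost without any 1 of TPR1-GFP replicates 2 and 3 or Col-0 replicates 1, 2 and 3 (adjusted p 0.0565 to 0.0968). The regions just upstream of 5 of the tau genes that rose are given below, since these genes had large rises, with *GSTU8* as one that holds no match. Each run is the 250 bases before the annotated start of the gene in TAIR10.1, on the gene's own strand, from RefSeq. Capitals mark 2 kinds of match on either strand: TGACG, the core bound by TGA factors, and TTGACC or TTGACT, the W-box core bound by WRKY factors. *GSTU10* lies on the minus strand (chr1:28024861-28025110), *GSTU8* on the minus strand (chr3:2849687-2849936), *GSTU9* on the minus strand (chr5:25089627-25089876), *GSTU11* on the minus strand (chr1:26338819-26339068) and *GSTU24* on the plus strand (chr1:5869293-5869542).
GSTU10: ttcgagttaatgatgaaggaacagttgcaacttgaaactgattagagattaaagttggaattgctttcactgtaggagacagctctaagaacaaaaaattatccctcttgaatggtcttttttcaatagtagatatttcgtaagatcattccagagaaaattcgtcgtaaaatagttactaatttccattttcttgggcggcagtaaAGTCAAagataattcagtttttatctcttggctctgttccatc
GSTU8: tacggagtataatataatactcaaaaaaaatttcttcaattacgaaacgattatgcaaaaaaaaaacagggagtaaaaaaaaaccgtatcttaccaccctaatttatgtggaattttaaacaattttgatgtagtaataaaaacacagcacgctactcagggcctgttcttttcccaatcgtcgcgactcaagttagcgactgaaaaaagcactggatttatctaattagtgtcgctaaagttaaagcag
GSTU9: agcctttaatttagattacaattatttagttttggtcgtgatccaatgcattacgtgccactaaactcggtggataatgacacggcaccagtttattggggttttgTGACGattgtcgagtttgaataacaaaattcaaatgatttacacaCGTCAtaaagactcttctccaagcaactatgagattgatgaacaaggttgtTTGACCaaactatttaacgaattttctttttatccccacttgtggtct
GSTU11: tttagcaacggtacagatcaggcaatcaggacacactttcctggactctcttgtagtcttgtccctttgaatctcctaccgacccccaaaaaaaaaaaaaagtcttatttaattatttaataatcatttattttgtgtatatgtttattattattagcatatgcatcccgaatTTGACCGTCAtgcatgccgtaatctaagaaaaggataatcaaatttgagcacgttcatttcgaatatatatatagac
GSTU24: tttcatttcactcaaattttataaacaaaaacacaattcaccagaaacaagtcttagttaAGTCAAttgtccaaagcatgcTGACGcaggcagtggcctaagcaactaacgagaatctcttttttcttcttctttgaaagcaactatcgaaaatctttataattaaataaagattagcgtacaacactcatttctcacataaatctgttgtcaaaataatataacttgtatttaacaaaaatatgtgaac

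The *GSTU9* window holds TGACG at 99 and 144 bases before the start and TTGACC at 48 bases. In the *GSTU11* window TGACG at 72 bases and TTGACC at 77 bases, on opposite strands, overlap in 1 run. *GSTU10* has TTGACT at 43 bases, and *GSTU24* has TGACG at 169 bases and TTGACT at 190 bases. In windows from 250 bases before to 50 after the start, TGACG occurred in 10 of 20 tau genes (50%), 3 of 11 phi genes (27.3%) and 15 of all 45 (33.3%), beside 23.1% of 26710 protein-coding genes. A W-box core occurred in 11 tau genes (55%), 5 phi genes (45.5%) and 21 of all 45 (46.7%), beside 32.4% of protein-coding genes. These matches describe letters, and binding was not measured in these libraries.

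The tau falls were smaller. *GSTU13*, whose enzyme acts in the metabolism of indole glucosinolates, had 32.5, 32.6 and 32.8 CPM in the TPR1-GFP libraries, against 64.2, 76.0 and 94.2 CPM in Col-0 (log2 change −1.26, SE 0.12, adjusted p = 1.19e-05). The 3 TPR1-GFP values were nearly equal and lay well below every Col-0 library. *GSTU20*, which encodes a partner of the jasmonate-conjugating enzyme JAR1, had 158, 135 and 75.4 CPM in the TPR1-GFP libraries, against 304, 118 and 379 CPM in Col-0 (log2 change −1.12, SE 0.36, adjusted p = 0.0208). Its groups overlapped, and the call was lost without TPR1-GFP replicate 3 (adjusted p = 0.0778) or Col-0 replicate 3 (0.0973), and in a fit of these 2 groups alone (0.0707). *GSTU19* had 282, 307 and 298 CPM in the TPR1-GFP libraries, against 381, 359 and 432 CPM in Col-0 (log2 change −0.40, SE 0.10, adjusted p = 0.00458), a small shift without overlap. *GSTU26*, *GSTU5* and *GSTU18* fell by 0.61, 0.46 and 0.40 on the log2 scale. Without scaling for composition the calls of *GSTU18*, *GSTU19*, *GSTU20*, *GSTU26* and *GSTU5* were lost and *GSTU13* was still called lower. The call of *GSTU5* was also lost without TPR1-GFP replicate 2 or 3 or Col-0 replicate 3 (adjusted p 0.057 to 0.0724). The 6 tau genes that did not pass the test, *GSTU1*, *GSTU6*, *GSTU7*, *GSTU17*, *GSTU23* and *GSTU28*, had log2 changes of −0.99 to −0.24.

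**Figure D2:**
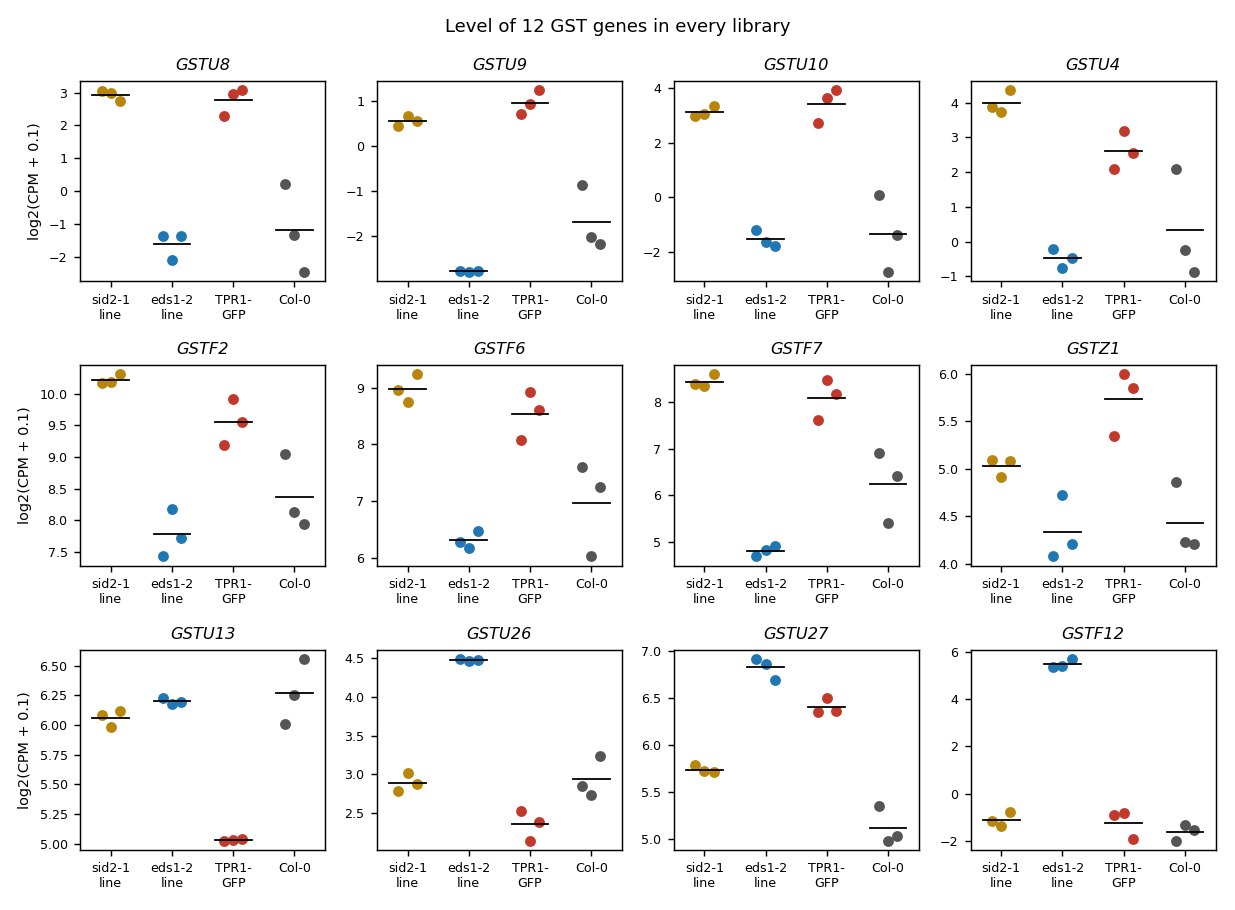
Level of 12 GST genes as log2(CPM + 0.1) on the vertical axis, with its own range in each panel, in the libraries of the 4 genotypes; points are libraries and lines are means of 3. The upper row shows tau genes that were high in the sid2-1 line and TPR1-GFP, the middle row phi genes and *GSTZ1*, with higher means in TPR1-GFP than in the eds1-2 line and in Col-0, and the lower row genes with other patterns, among them *GSTF12*, at 41.0 to 52.5 CPM in the eds1-2 line and below 0.5 CPM in every other library.

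Among the phi genes 6 rose and 2 fell, with a median log2 change of 0.90. *GSTF7* had 195, 355 and 289 CPM in the TPR1-GFP libraries, against 120.4, 42.4 and 85.7 CPM in Col-0 (log2 change 1.75, SE 0.31, adjusted p = 0.000738). Its neighbour *GSTF6*, which joins glutathione to an indole intermediate on the way to camalexin, had 269, 483 and 390.4 CPM in the TPR1-GFP libraries, against 194, 64.9 and 152 CPM in Col-0 (log2 change 1.47, SE 0.33, adjusted p = 0.00335). *GSTF2*, whose protein binds indole compounds, had 585, 962 and 755 CPM in the TPR1-GFP libraries, against 531, 281 and 245 CPM in Col-0 (log2 change 1.12, SE 0.29, adjusted p = 0.00631). The groups were apart in these 3 genes, and replicate 1 was the lowest of the TPR1-GFP libraries in each. *GSTF9* had 1322, 1562 and 1382 CPM in the TPR1-GFP libraries, against 882, 686 and 725 CPM in Col-0 (log2 change 0.90, SE 0.12, adjusted p = 0.00012), without overlap. *GSTF8*, a widely used marker of stress, rose less (log2 change 0.41, SE 0.11, adjusted p = 0.00798).

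*GSTF3*, a near copy of *GSTF2*, had 1.01, 1.69 and 0.995 CPM in the TPR1-GFP libraries, against 0.600, 0.596 and 0.687 CPM in Col-0 (log2 change 0.98, SE 0.38, adjusted p = 0.045). Its level was between 0.0924 and 0.557% of that of *GSTF2* in the same library, the coding sequences are 94.5% identical, and 5.9% of 50-base stretches are shared, so reads of the pair cannot be fully told apart. Its call was lost without TPR1-GFP replicate 2 (adjusted p = 0.198) or without any 1 of the Col-0 replicates 1, 2 and 3 (0.0934, 0.0989 and 0.0817), with the replicate block (0.0661), upper-quartile scaling (0.0624) or limma-voom (0.132), and in the authors' deposited table (0.129). *GSTF4* had 1.58, 0.945 and 0.597 CPM in the TPR1-GFP libraries, against 3.75, 2.68 and 3.03 CPM in Col-0 (log2 change −1.59, SE 0.32, adjusted p = 0.00159). *GSTF11* had 2.66, 1.83 and 1.51 CPM in the TPR1-GFP libraries, against 6.60, 1.79 and 5.33 CPM in Col-0 (log2 change −1.19, SE 0.41, adjusted p = 0.0272). *GSTF4* was lower in TPR1-GFP without overlap, whereas the groups of *GSTF11* overlapped at Col-0 replicate 2. The *GSTF11* call was lost without TPR1-GFP replicate 2 or 3 or Col-0 replicate 1 or 3 (adjusted p 0.0826, 0.0923, 0.109 and 0.0859) and without scaling for composition (0.0652), with limma-voom (0.0654), in a fit of these 2 groups alone (0.0639) and in the authors' deposited table (0.0651). *GSTF5*, *GSTF10* and *GSTF12* did not pass the test.

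*GSTF7* and *GSTF6* are 94.7% identical in coding sequence and 93.8% in protein and share 17.2 and 17.3% of their 50-base stretches, so reads can be exchanged between them. The upstream window of *GSTF7*, on the minus strand (chr1:659981-660230), is shown because this gene had the largest rise among the called phi genes, with W-box cores in capitals.
GSTF7: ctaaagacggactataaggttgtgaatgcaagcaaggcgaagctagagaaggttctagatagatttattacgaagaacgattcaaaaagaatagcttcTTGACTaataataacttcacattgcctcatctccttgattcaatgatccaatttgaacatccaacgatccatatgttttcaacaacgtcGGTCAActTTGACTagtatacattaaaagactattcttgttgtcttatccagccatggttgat

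The *GSTF7* window holds TTGACC at 63 and TTGACT at 55 and 152 bases before the start and no TGACG.

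Among the smaller classes, *GSTZ1*, the maleylacetoacetate isomerase of tyrosine breakdown, had 40.5, 63.7 and 57.8 CPM in the TPR1-GFP libraries, against 28.9, 18.6 and 18.4 CPM in Col-0, with no overlap (log2 change 1.30, SE 0.22, adjusted p = 0.000522). *AT5G44990* had 0.934, 1.35 and 2.15 CPM in the TPR1-GFP libraries, against 0.350, 0 and 0.0404 CPM in Col-0 (log2 change 3.51, SE 0.68, adjusted p = 0.00113), and without Col-0 replicate 1 the log2 change was 5.76. *AT1G65820*, a putative microsomal GST, rose by 0.92 (adjusted p = 0.000344), *AT4G19880* by 0.77 (adjusted p = 0.00344) and *AT5G42150* by 0.56 (adjusted p = 0.00502). *AT5G12110*, a subunit of translation elongation factor 1B with a GST-like domain, had a log2 change of −1.0 (adjusted p = 0.0151). That call was lost without TPR1-GFP replicate 3 (0.0577), Col-0 replicate 3 (0.088) or scaling for composition (0.0508). The 3 theta genes, *GSTL3*, *AT1G30230*, *AT1G77290*, *AT5G44000* and *AT5G45020* did not pass the test, with log2 changes between −0.38 and 0.29. *AT1G77290* passed as lower with upper-quartile scaling (adjusted p = 0.0245), with limma-voom (0.0434) and in the authors' deposited table (0.046). *AT5G44000* passed as lower with upper-quartile scaling (0.0236), and *AT1G30230* as higher without scaling for composition (0.00205).

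**Figure D3:**
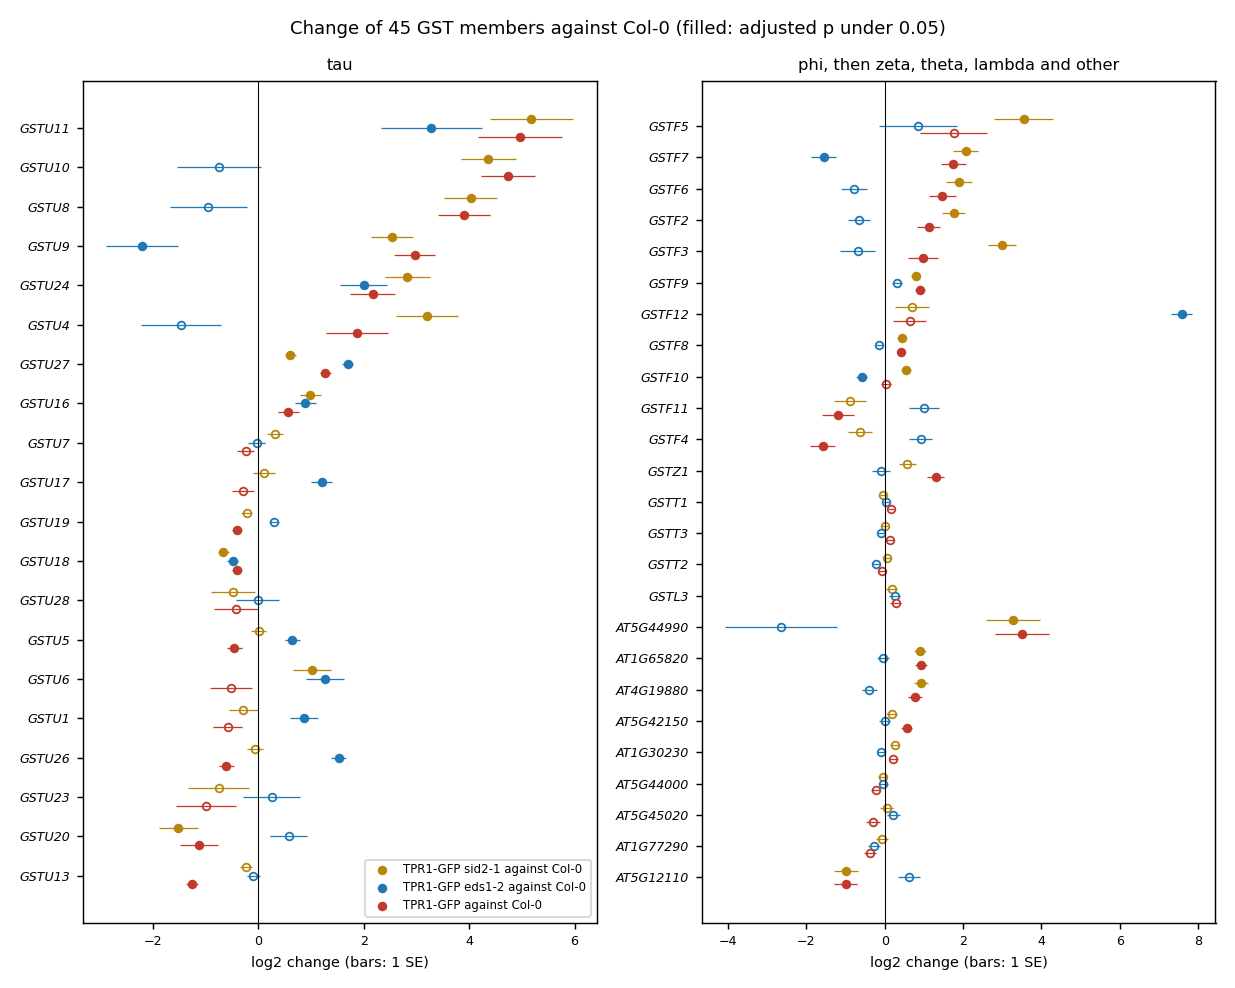
Log2 change against Col-0 (horizontal axis; bars are 1 SE) of all 45 members in the sid2-1 line, the eds1-2 line and TPR1-GFP, with tau genes on the left and the other classes on the right, ordered within each class by the change in TPR1-GFP; filled points passed an adjusted p of 0.05. *GSTU10* and *GSTU8* lie far to the right in the sid2-1 line and TPR1-GFP and not in the eds1-2 line, and *GSTF12* stands at 7.59 in the eds1-2 line.

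Setting the sid2-1 line against TPR1-GFP asks what changes when the salicylic acid enzyme is mutated in plants with the same transgene. *TPR1* counts differed as well, with 776 to 1305 CPM in the sid2-1 line, below 1539 to 1748 CPM in TPR1-GFP. The part of that difference in the results was not tested. Here 9 of 45 genes changed, 7 higher and 2 lower, which is 20% of them, beside 16.8% of all genes tested (9.7% higher and 7.14% lower). Rises of at least 1 log2 unit were made by 3 members and falls of that size by 0, beside 3.21% and 1.59% of all genes, and groups did not overlap in 22 members, beside 39.9% of all genes. The count was 3 without TPR1-GFP replicate 2, TPR1-GFP replicate 3 or sid2-1 line replicate 1, 4 without sid2-1 line replicate 2 and 5 without sid2-1 line replicate 3. Without scaling for composition 6 were higher and 5 lower. Over all genes 1414 were then higher and 2293 lower, against 1832 and 1347 with TMM scaling. The median log2 change was 0.18 over the members and 0.00 over all genes.

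*GSTU13* had 67.8, 63.0 and 69.3 CPM in the sid2-1 line, against 32.5, 32.6 and 32.8 CPM in TPR1-GFP (log2 change 1.03, SE 0.12, adjusted p = 0.000508), and the groups were far apart. *GSTF3* had 5.53, 6.48 and 3.31 CPM in the sid2-1 line, against 1.01, 1.69 and 0.995 CPM in TPR1-GFP (log2 change 2.03, SE 0.32, adjusted p = 0.00291), all higher than TPR1-GFP. *GSTF2* had 1152, 1165 and 1265 CPM in the sid2-1 line, against 585, 962 and 755 CPM in TPR1-GFP (log2 change 0.64, SE 0.28, adjusted p = 0.14). The *GSTF2* groups did not overlap, and it passed in a fit of these 2 groups alone (adjusted p = 0.0213). *GSTU27* had 55.3, 52.7 and 52.4 CPM in the sid2-1 line, against 81.7, 90.3 and 82.2 CPM in TPR1-GFP, a fall without overlap (log2 change −0.66, SE 0.10, adjusted p = 0.00254). *GSTZ1* had 34.1, 30.2 and 33.8 CPM in the sid2-1 line, against 40.5, 63.7 and 57.8 CPM in TPR1-GFP (log2 change −0.73, SE 0.22, adjusted p = 0.0409). The *GSTZ1* call was lost without TPR1-GFP replicate 2 or 3 or any of the 3 sid2-1 line replicates (adjusted p 0.0866 to 0.151) and with the replicate block (0.0682).

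The other 5 genes called there were *GSTU6* (log2 change 1.53), *GSTU7* (0.55), *GSTU26* (0.54), *GSTF10* (0.50) and *GSTU5* (0.46), all higher. Each of these calls was lost without at least 1 library, with adjusted p up to 0.138. *GSTU6* lost it without TPR1-GFP replicate 2 or 3 or sid2-1 line replicate 1 or 2, *GSTU26* and *GSTU5* without TPR1-GFP replicate 2 or 3 or any sid2-1 line replicate, *GSTU7* without any 1 of the 6 libraries and *GSTF10* without any 1 of them except sid2-1 line replicate 2. *GSTU7* also missed the threshold with the replicate block (adjusted p = 0.0523) and *GSTU5* without scaling for composition (0.0666). Tau genes that rose most in TPR1-GFP did not pass the test between these lines, with log2 changes for *GSTU10* of −0.37 (SE 0.37), *GSTU8* 0.12 (SE 0.38), *GSTU9* −0.44 (SE 0.31), *GSTU11* 0.22 (SE 0.45) and *GSTU24* 0.66 (SE 0.34). Of these, the *GSTU9* groups did not overlap. *GSTU4* had 14.5, 13.1 and 20.5 CPM in the sid2-1 line, against 4.13, 9.08 and 5.81 CPM in TPR1-GFP (log2 change 1.33, SE 0.51, adjusted p = 0.0938), with no overlap. It passed in a fit of these 2 groups alone (0.0082), with limma-voom (0.0141) and in the authors' deposited table (0.0136). Missing the threshold does not show that these levels were alike.

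Setting the eds1-2 line against TPR1-GFP asks the same of EDS1. Again *TPR1* counts were lower, with 990.2 to 1327 CPM in the eds1-2 line against 1539 to 1748 CPM in TPR1-GFP, and their part was not tested. Here 33 of 45 genes changed, 14 higher and 19 lower, which is 73.3% of them, beside 52.9% of all genes tested. Over all genes 25.2% were higher and 27.7% lower. Rises of at least 1 log2 unit were made by 11 members and falls by 12, beside 10.3% and 9.89% of all genes, and groups did not overlap in 33 members, beside 60.4% of all genes. Tau genes were higher in 9 cases and lower in 5 (median log2 change 0.42), and phi genes were higher in 3 and lower in 7 (median −0.63), beside a median of −0.03 over all genes. Both this comparison and the one with Col-0 use the same TPR1-GFP libraries, so opposite signs in them are not independent.

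*GSTU10* had 0.337, 0.223 and 0.191 CPM in the eds1-2 line, against 6.54, 12.3 and 15.2 CPM in TPR1-GFP, a 44.5-fold fall (log2 change −5.48, SE 0.56, adjusted p = 2.17e-05). *GSTU8* had 0.289, 0.134 and 0.286 CPM in the eds1-2 line, against 4.78, 7.59 and 8.32 CPM in TPR1-GFP (log2 change −4.85, SE 0.55, adjusted p = 3.93e-05). *GSTU4* had 0.770, 0.490 and 0.620 CPM in the eds1-2 line, against 4.13, 9.08 and 5.81 CPM in TPR1-GFP (log2 change −3.34, SE 0.68, adjusted p = 0.00174). In all 3 the eds1-2 libraries lay below every TPR1-GFP library. *GSTU9* had 3 counts over the eds1-2 libraries against 163 over the TPR1-GFP libraries, a ratio of 39.7 in favour of TPR1-GFP (95% counting interval 13.4 to 195, adjusted p = 1.46e-05). *AT5G44990* had 1 count against 127, a ratio of 92.8 in favour of TPR1-GFP (16.4 to 3690, adjusted p = 0.000257), and its single count came from eds1-2 line replicate 1, without which the log2 change was −8.18.

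*GSTU24* had 1.49, 0.980 and 1.10 CPM in the eds1-2 line, against 0.755, 2.09 and 1.11 CPM in TPR1-GFP (log2 change −0.17, SE 0.36, adjusted p = 0.708), with overlapping groups. *GSTU11* had 0.722, 0.0891 and 0.238 CPM in the eds1-2 line, against 0.719, 1.49 and 1.11 CPM in TPR1-GFP (log2 change −1.68, SE 0.53, adjusted p = 0.0192). Its groups overlapped, the call was lost without TPR1-GFP replicate 2 (adjusted p = 0.08), eds1-2 line replicate 2 (0.0548) or eds1-2 line replicate 3 (0.0734) and in a fit of these 2 groups alone (0.0597), and the log2 change was −2.75 without eds1-2 line replicate 1. *GSTU27* went the other way, with 121, 116 and 104 CPM in the eds1-2 line, against 81.7, 90.3 and 82.2 CPM in TPR1-GFP (log2 change 0.42, SE 0.10, adjusted p = 0.00468), a call lost without scaling for composition (adjusted p = 0.0555). *GSTU27* lies on chromosome 3, 2.09 Mb from *EDS1*, and the sequence of the line in that region was not analysed here.

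The 9 tau genes that were higher in the eds1-2 line than in TPR1-GFP were *GSTU1*, *GSTU5*, *GSTU6*, *GSTU13*, *GSTU17*, *GSTU19*, *GSTU20*, *GSTU26* and *GSTU27*. *GSTU26* had 22.4, 21.8 and 22.1 CPM in the eds1-2 line, against 5.68, 4.33 and 5.14 CPM in TPR1-GFP (log2 change 2.13, SE 0.14, adjusted p = 1.69e-06). *GSTU20* had 421, 355 and 417 CPM in the eds1-2 line, against 158, 135 and 75.4 CPM in TPR1-GFP (log2 change 1.70, SE 0.36, adjusted p = 0.00248). *GSTU17*, known as the early dehydration gene ERD9, had 83.5, 73.4 and 84.3 CPM in the eds1-2 line, against 30.9, 30.6 and 24.4 CPM in TPR1-GFP (log2 change 1.49, SE 0.20, adjusted p = 0.000135). Each of these 3 was higher in every eds1-2 library than in any TPR1-GFP library. *GSTU13* had 74.9, 72.2 and 73.0 CPM in the eds1-2 line (log2 change 1.17, SE 0.12, adjusted p = 1.61e-05), and *GSTU19* had 453, 516 and 470.0 CPM there (log2 change 0.70, SE 0.10, adjusted p = 0.00014).

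Among the phi genes, *GSTF7* had 25.8, 28.2 and 30.1 CPM in the eds1-2 line, against 195, 355 and 289 CPM in TPR1-GFP, a 9.97-fold fall (log2 change −3.32, SE 0.33, adjusted p = 2.17e-05). *GSTF6* had 77.4, 72.0 and 88.9 CPM in the eds1-2 line, against 269, 483 and 390.4 CPM in TPR1-GFP (log2 change −2.26, SE 0.34, adjusted p = 0.000276). *GSTF2* had 172, 289 and 212 CPM in the eds1-2 line, against 585, 962 and 755 CPM in TPR1-GFP (log2 change −1.77, SE 0.29, adjusted p = 0.000438). None of these groups overlapped. *GSTF3*, *GSTF10*, *GSTF9* and *GSTF8* fell by 1.66, 0.63, 0.59 and 0.56 on the log2 scale. *GSTF4* had 7.41, 4.45 and 6.01 CPM and *GSTF11* 8.33, 10.4 and 8.68 CPM in the eds1-2 line, higher than in TPR1-GFP by 2.50 (SE 0.32) and 2.19 (SE 0.40). *GSTZ1* fell as well, with 16.8, 26.3 and 18.4 CPM in the eds1-2 line (log2 change −1.40, SE 0.22, adjusted p = 0.000344).

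*GSTF12*, known as TT19 and needed to bring anthocyanins and proanthocyanidins to the vacuole, stood apart from all other members. It had 0.352, 0.289 and 0.473 CPM in the sid2-1 line, 41.0, 42.7 and 52.5 CPM in the eds1-2 line, 0.431, 0.458 and 0.159 CPM in TPR1-GFP plants and 0.150, 0.298 and 0.242 CPM in Col-0. The lowest library of the eds1-2 line thus lay far above the highest library of the other genotypes. The rise was 124-fold against TPR1-GFP (log2 change 6.95, SE 0.24, adjusted p = 7.25e-09) and 192-fold against Col-0 (log2 change 7.59, SE 0.27, adjusted p = 6.09e-09). A gene on the opposite strand that is also in the table overlaps *GSTF12* by 108 bases, and the strand setting of the counting is not given in the sources used here. Of the flower markers only *AG* was listed, at 0.101 to 0.169 CPM in the sid2-1 line, 2.00 to 2.26 CPM in the eds1-2 line, 0.0796 to 0.287 CPM in TPR1-GFP plants and 0.298 to 0.95 CPM in Col-0, and its part in the *GSTF12* level was not tested.

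The double lines differed from each other at 29 of 45 genes, 18 higher and 11 lower in the sid2-1 line, which is 64.4% of them, beside 34.4% of all genes tested (19.5% higher and 14.9% lower). The difference was at least 1 log2 unit upward in 13 members and downward in 9, beside 8.49% and 4.28% of all genes, and groups did not overlap in 37 members, beside 49.7% of all genes. All 11 phi genes passed the test in this comparison, 8 of them higher in the sid2-1 line and *GSTF4*, *GSTF11* and *GSTF12* lower. Among the 8 is *GSTF5*, which passed the filter on low counts only through the sid2-1 libraries. It had 34, 20 and 27 counts there and at most 16 in any other library. That selection favours its call, which is counted in the totals above and is not used as support. *GSTF12* changed most (log2 change −6.89, SE 0.25, adjusted p = 6.45e-09), and *GSTF3* and *GSTF7* followed with log2 changes of 3.69 (SE 0.39) and 3.63 (SE 0.34). *GSTF5*, below 2 CPM in every library, had 1.71, 0.826 and 0.912 CPM in the sid2-1 line, against 0.193, 0.312 and 0 CPM in the eds1-2 line (log2 change 2.69, SE 0.68, adjusted p = 0.00997), and 3.49 on the log2 scale without eds1-2 line replicate 2. The call of *GSTF9* was lost without sid2-1 line replicate 1 (adjusted p = 0.0544).

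Tau genes were split between the double lines, with 5 higher and 7 lower in the sid2-1 line. *GSTU10* had 7.84, 8.18 and 10.2 CPM in the sid2-1 line, against 0.337, 0.223 and 0.191 CPM in the eds1-2 line (log2 change 5.10, SE 0.56, adjusted p = 5.69e-05). *GSTU8* had 8.24, 7.76 and 6.59 CPM in the sid2-1 line, against 0.289, 0.134 and 0.286 CPM in the eds1-2 line (log2 change 4.97, SE 0.55, adjusted p = 5.67e-05). *GSTU4* had 14.5, 13.1 and 20.5 CPM in the sid2-1 line, against 0.770, 0.490 and 0.620 CPM in the eds1-2 line (log2 change 4.67, SE 0.67, adjusted p = 0.000384). All 3 genes stood below 1 CPM in every eds1-2 library and far above it in every sid2-1 library. *GSTU9* had 102 counts in the sid2-1 line against 3 in the eds1-2 line, a ratio of 29.6 (9.85 to 146), and *AT5G44990* had 92 counts against 1, a ratio of 80.1 (14 to 3200), with a log2 change of 7.94 without eds1-2 line replicate 1. The 7 tau genes that were lower in the sid2-1 line were *GSTU20* (−2.09), *GSTU26* (−1.59), *GSTU1* (−1.15), *GSTU17* (−1.09), *GSTU27* (−1.09), *GSTU5* (−0.64) and *GSTU19* (−0.52), all on the log2 scale. *GSTU11* had a log2 change of 1.90 (adjusted p = 0.017), 2.97 without eds1-2 line replicate 1, and missed the threshold without eds1-2 line replicate 3 (0.0688). The *GSTZ1* call was lost without any 1 of the 3 sid2-1 line replicates or eds1-2 line replicates 1 and 3 (adjusted p 0.0588 to 0.125) and with the replicate block (0.052).

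Against Col-0, 23 of 45 genes changed in the sid2-1 line, 20 higher and 3 lower, which is 51.1% of them, beside 42.1% of all genes tested (22.1% higher and 19.9% lower). At least 1 log2 unit was reached upward by 13 and downward by 1, beside 10.3% and 4.11% of all genes, and groups did not overlap in 27 members, beside 53.8%. The eds1-2 line had 14 members changed against Col-0, 10 higher and 4 lower, which is 31.1%, beside 17.5% of all genes (9.48% higher and 8.02% lower). Here 7 rose and 2 fell by at least 1 log2 unit, beside 4.89% and 2.95% of all genes, and groups did not overlap in 20 members, beside 34.8%. *GSTF5* passed the filter on low counts only through the sid2-1 line. In that line it is counted in the 23, the 20 and the 13 above and among the 8 phi genes below. Its call is not used as support here either. The sid2-1 line had 8 phi genes higher and 0 lower, among them *GSTF7* (2.07, SE 0.32), *GSTF6* (1.89, SE 0.34), *GSTF2* (1.76, SE 0.29) and *GSTF3* (3.0, SE 0.36). Among its 9 higher tau genes were *GSTU10* (4.37), *GSTU8* (4.03), *GSTU4* (3.21) and *GSTU9* (2.53), which stood at 5.59, 5.35, 4.77 and 3.32 without Col-0 replicate 1, and *AT5G44990* had 3.27, or 5.52 without that library. *GSTU11* had 96 counts in the sid2-1 line against 2 in Col-0, a ratio of 42.2 (11.4 to 354). The 3 genes that were lower were *GSTU20* (−1.51), *AT5G12110* (−0.98) and *GSTU18* (−0.66), of which *AT5G12110* lost its call without sid2-1 line replicate 1 or 2 or Col-0 replicate 3 (adjusted p 0.0695 to 0.12). *GSTU6* was called higher (1.02) and lost its call without sid2-1 line replicate 1 or 2 or any Col-0 replicate (0.0539 to 0.13), with upper-quartile scaling (0.0553) and with limma-voom (0.0534).

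Tau genes made up 9 of the 10 rises in the eds1-2 line against Col-0, and *GSTF12* was the other. With other scalings 12 or 13 members were higher there, while the genes called higher over all genes went from 1789 to 1889, 2072 or 2270. *GSTF4* (adjusted p = 0.0522) passed under 7 other settings (0.0171 to 0.0495) and *GSTU19* (adjusted p = 0.0563) under 5 (0.00569 to 0.0496). *GSTU24* had 1.49, 0.980 and 1.10 CPM in the eds1-2 line, against 0.250, 0.348 and 0.283 CPM in Col-0 (log2 change 2.00, SE 0.44, adjusted p = 0.00953). *GSTU27* had 121, 116 and 104 CPM in the eds1-2 line, against 40.7, 31.6 and 32.7 CPM in Col-0 (log2 change 1.70, SE 0.11, adjusted p = 1.8e-06). *GSTU26* had 22.4, 21.8 and 22.1 CPM in the eds1-2 line, against 7.10, 6.56 and 9.29 CPM in Col-0 (log2 change 1.52, SE 0.14, adjusted p = 3.94e-05). These 3 were higher in every eds1-2 library than in any Col-0 library. *GSTU17*, *GSTU16* and *GSTU5* were higher by 1.20, 0.89 and 0.64 on the log2 scale. *GSTU11* had 22 counts against 2, a ratio of 11.1 (2.73 to 97.5). Its call was lost without eds1-2 line replicate 1 or 3 or any Col-0 replicate (adjusted p 0.0525 to 0.133) with limma-voom (0.0694) and with the replicate block (0.0628). *GSTU6* (1.27) lost its call without eds1-2 line replicate 1 or 3 or Col-0 replicate 2 or 3 (0.0612 to 0.139), with limma-voom (0.0534) or in a fit of these 2 groups alone (0.0865), and *GSTU1* (0.86) without any 1 of the 6 libraries (0.0657 to 0.131).

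Lower than Col-0 in the eds1-2 line were *GSTF7* (log2 change −1.56, SE 0.32, adjusted p = 0.00644), *GSTF10* (log2 change −0.59, SE 0.13, adjusted p = 0.0106, 0.0561 in a fit of these 2 groups alone), *GSTU18* (log2 change −0.49, SE 0.10, adjusted p = 0.00748) and *GSTU9*. *GSTU9* had 3 counts in the eds1-2 line against 15 in Col-0, a ratio of 4.95 in favour of Col-0 (1.4 to 26.7, adjusted p = 0.0443). The *GSTU9* call was lost without any 1 eds1-2 line replicate or Col-0 replicate 1 or 2 (adjusted p 0.052 to 0.279) with the replicate block (0.0765), without scaling for composition (0.0554), with the DESeq2 Wald test (0.073) and with limma-voom (0.101), and the log2 change was −1.42 without Col-0 replicate 1. *GSTU10*, *GSTU8* and *GSTU4* did not pass the test in the eds1-2 line against Col-0, with log2 changes of −0.74 (SE 0.80), −0.95 (SE 0.74) and −1.47 (SE 0.76), and without Col-0 replicate 1 these values were 0.48, 0.37 and 0.10. *GSTF6* and *GSTF2* did not pass it either, at −0.79 (SE 0.33) and −0.65 (SE 0.28). Such values do not show that these levels are alike in the eds1-2 line and Col-0.

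Many members lie in runs of neighbours. On chromosome 1 between positions 658578 and 666471 of TAIR10.1 lie *GSTF7*, *GSTF6*, *GSTF5* and *GSTF4* in this order. *GSTF7* and *GSTF6* of the eds1-2 line against TPR1-GFP fell by 3.32 and 2.26 on the log2 scale, *GSTF5* had −0.91 (adjusted p = 0.34) and *GSTF4* rose by 2.50. On chromosome 2 between 12617936 and 12632538 lie *GSTU7*, *GSTU6*, *GSTU5*, *GSTU4* and *GSTU1*. In that run *GSTU4* fell by 3.34 in the eds1-2 line while *GSTU6*, *GSTU5* and *GSTU1* rose by 1.78, 1.10 and 1.44. *GSTU4* and *GSTU1* are the most alike proteins of the tau class here, with 78.1% identity.

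The 3 theta genes on chromosome 5 between 16492275 and 16500865 showed small changes with TMM scaling. There *GSTT1*, *GSTT3* and *GSTT2* stayed within 0.27 log2 units of 0 in all 6 comparisons, and 1 of these 18 values passed the test. Without scaling for composition, *GSTT1* and *GSTT3* were higher in TPR1-GFP than in Col-0 by 0.405 and 0.39 log2 units (adjusted p = 0.000776 and 0.00321). On the same scale *GSTT1* and *GSTT2* had −0.275 and −0.311 in the eds1-2 line against TPR1-GFP (0.00864 and 0.0312), *GSTT1* had −0.279 in the sid2-1 line against TPR1-GFP (0.0267) and *GSTT2* 0.354 in the sid2-1 line against the eds1-2 line (0.0284). The value that passed with TMM scaling was *GSTT3* in the eds1-2 line against TPR1-GFP (−0.24, adjusted p = 0.0438), a call lost without TPR1-GFP replicate 2 or 3 or any eds1-2 line replicate (0.0605 to 0.159) and with other scalings (0.065 and 0.292), the DESeq2 Wald test (0.0817) or these 2 groups alone (0.118). On chromosome 1 between 29467412 and 29488007, *GSTU20* and *GSTU19* rose together in the eds1-2 line against TPR1-GFP, by 1.70 and 0.70. *GSTU17* and *GSTU18*, which overlap by 71 bases on the same strand and are 74.9% identical in protein, parted there, with log2 changes of 1.49 and −0.08 (adjusted p = 0.514). Median protein identity was 39.6% between tau members, 42.3% between phi members and 22.8% between a tau and a phi member.

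**Figure D4:**
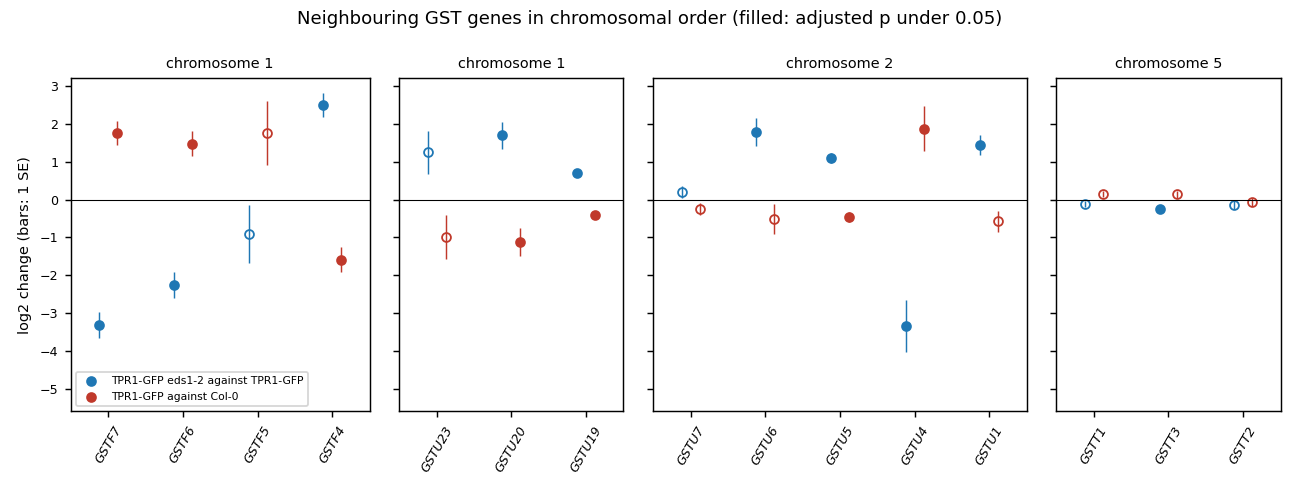
Log2 change (vertical axis; bars are 1 SE) of GST genes in 4 runs of at least 3 neighbours, in chromosomal order along the horizontal axis, for the eds1-2 line against TPR1-GFP and for TPR1-GFP against Col-0, which share the TPR1-GFP libraries; filled points passed an adjusted p of 0.05. *GSTU4* and the pair *GSTF7* and *GSTF6* stand apart from neighbours in their runs, and the theta run lies near 0.

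Several members overlap genes on the other strand that are also in the table, and reads of the 2 partners cannot be told apart without the strand setting. The overlap was 1442 bases for *GSTF2*, 1221 for *AT5G12110*, 1096 for *GSTF11*, which is its whole length, 296 for *AT1G77290*, 279 for *GSTU10* and 237 for *AT5G45020*. Among the members not yet described, *AT1G30230* was lower in the eds1-2 line than in TPR1-GFP (−0.32, adjusted p = 0.0273) and higher in the sid2-1 line than in the eds1-2 line (0.35, adjusted p = 0.0266). The first call was lost without any TPR1-GFP replicate or eds1-2 line replicate 2 or 3 (0.0561 to 0.0831) and the second without sid2-1 line replicate 1 or 2 or eds1-2 line replicate 2 or 3 (0.063 to 0.0973), and both with upper-quartile scaling (0.174 and 0.0964). *AT5G45020* was higher in the eds1-2 line than in TPR1-GFP (0.52, adjusted p = 0.0203), a call lost without TPR1-GFP replicate 2 or 3 or eds1-2 line replicate 2 or 3 (0.0524 to 0.0805) or without scaling for composition (0.0994). *AT1G65820*, *AT4G19880* and *AT5G42150* were lower in the eds1-2 line than in TPR1-GFP by 0.97, 1.17 and 0.55 on the log2 scale. *AT5G12110* was called higher in the eds1-2 line than in TPR1-GFP, with means of 13.7 and 4.46 CPM (log2 change 1.62). It was called lower in the sid2-1 line than in the eds1-2 line (−1.60). *GSTL3*, *GSTU23* and *GSTU28* passed the test in none of the 6 comparisons when all 12 libraries were fitted by edgeR with the Benjamini-Hochberg adjustment. *GSTU23* passed it in the eds1-2 line against TPR1-GFP in a fit of these 2 groups alone (adjusted p = 0.0305), and *GSTL3* in TPR1-GFP against Col-0 without scaling for composition (0.0055).

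Genes that make, use or move glutathione, and genes of chemical stress, were read from the same fit. Every count in these lists stands beside the shares of all genes tested: 27.5% higher and 26.4% lower in TPR1-GFP against Col-0, 25.2% higher and 27.7% lower in the eds1-2 line against TPR1-GFP, and 9.7% higher and 7.14% lower in the sid2-1 line against TPR1-GFP. In TPR1-GFP against Col-0, all 4 listed genes of ABCC-type transporters were higher (median log2 change 1.45). Where each of these transporters acts in the cell was not examined. *ABCC3* and *ABCC4* rose by 3.14 (SE 0.37) and 2.41 (SE 0.39), and *ABCC2* by 0.50 (SE 0.15). Of the 4, 3 were lower in the eds1-2 line against TPR1-GFP, with *ABCC3* down by 3.16, and in the sid2-1 line against TPR1-GFP 1 was lower, *ABCC4*. Of 7 glutathione peroxidase-like genes tested, 5 were higher and 0 lower in TPR1-GFP, led by *GPX7* (1.64), *GPX3* (0.67) and *GPX8* (0.62), while *GPX1* and *GPX6* had −0.21 and 0.45 without passing the test. Of these 7, the eds1-2 line against TPR1-GFP had 1 higher and 4 lower, and in the sid2-1 line 1 was higher and 2 lower.

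Of 17 genes of glutathione synthesis, sulfur supply and turnover tested, 10 were higher and 3 lower in TPR1-GFP than in Col-0 (median 0.35). *GGCT2;1* and *GGT4*, which break glutathione and its conjugates down, rose by 2.73 (SE 0.28) and 1.37 (SE 0.17), and the plastid glutathione reductase gene *GR2* was lower by 0.76. *APR1* and *OXP1* had 0.17 and 0.15 without passing the test. The eds1-2 line against TPR1-GFP had 3 higher and 6 lower, and in the sid2-1 line 4 were higher and 3 lower. Of 11 ascorbate peroxidase and monodehydroascorbate reductase genes, 4 were higher and 5 lower in TPR1-GFP. *MDAR3* rose by 5.50 (SE 0.52), the thylakoid peroxidase gene *TAPX* fell by 1.66 and *APX4* by 1.11, and *APX3* and *MDAR1* had 0.23 and 0.05 without a call. Against TPR1-GFP the eds1-2 line had 5 higher and 1 lower, and in the sid2-1 line 2 were higher and 1 lower.

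Of 13 chemical stress and detoxification genes tested, 6 were higher and 3 lower in TPR1-GFP than in Col-0 (median 0.32). The efflux carrier genes *DTX1* and *DTX3* had 68 counts in TPR1-GFP against 1 in Col-0 and 97 against 2, ratios of 50.2 (8.71 to 2010) and 35.8 (9.65 to 300.0). *UGT75B1*, a glucosyltransferase gene, was lower by 2.24, and *AER* and *ANAC032* had −0.07 and −0.08 without a call. In the eds1-2 line against TPR1-GFP 4 were higher and 4 lower, and *DTX1* had 0 counts there, at least 16.6-fold lower when set against a floor of 3 counts over the group. In the sid2-1 line against TPR1-GFP 5 were higher and 0 lower, among them *DTX1* (1.30, adjusted p = 0.0372). Members of these lists were named by the size of their change, and the lists as such were not tested.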

How the data were processed

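Polyadenylated RNA of untreated leaves was sequenced in 12 libraries, 3 for each of 4 genotypes. Per the submitters' processing notes, TopHat2, HTSeq and limma were used on TAIR10; versions and the strand setting are not given in the sources used here. The deposited table holds the authors' raw read count for each gene in each library. The smallest sum of a gene was 101, and 0 rows lack a gene name. It also holds the authors' log2 changes and adjusted p-values (FDR) for 3 comparisons, used as an alternative only, and 12 per-sample columns of normalized values that were not used. The deposited comparisons of TPR1-GFP with both double lines have TPR1-GFP on top, and their signs were turned here.

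The tests used edgeR 4.0.16 under R 4.3.3. The filter filterByExpr left 18877 genes, TMM factors ran from 0.888 to 1.103, and 1 robust quasi-likelihood model, with a term for genotype alone, took in all 12 libraries. Calls rest on a Benjamini-Hochberg adjusted p under 0.05, the adjustment covering every gene tested. An SE was obtained from the log2 change and its F statistic (absolute change over root F). Folds are those of the fit. For a group with 1 to 3 counts the ratio of scaled counts is given with an exact 95% interval, and for 0 counts a bound from a floor of 3 counts over the group; both cover counting error only. Libraries of a genotype differed by 6.70 to 38.4 times sampling noise (chi-square per degree of freedom), so none is a copy of another. The fitting was checked on simulated data.

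The replicate numbers were compared across genotypes: 8 of 18 same-numbered pairs correlated above 0.1 (range −0.416 to 0.441), so the numbers were not taken to pair libraries in general. All 3 pairs of the sid2-1 line and Col-0 correlated above 0.1 (0.201, 0.304 and 0.356), which does not settle whether they were paired. There the block left 23 members called, 20 higher and 3 lower, as without it.

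Members, lists and tests were chosen with earlier results of these data known. Values per library are printed for the 8 tau and 6 phi members with the largest called change in TPR1-GFP against Col-0, called members of smaller classes with a change of at least 1 log2 unit, the tau and phi member highest per length, and the 6 members with the largest called change between the double lines. That makes 19 genes; values of *GSTU20*, *GSTU26*, *GSTU17* and *GSTF5*, and the anthocyanin genes of the closing section, were added after they were seen. Of each list the 3 genes with the largest called change were named, and up to 2 that were not called.

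Gene codes were matched by locus to TAIR10.1 of RefSeq (18642 of 18884 genes and all 45 members), which gave positions, lengths and sequences. Protein identity was computed with Biopython 1.88 from translated coding sequences, over the shorter one. The upstream sequence of 1 further phi gene is not reported here.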

Additional observations from a re-analysis of the deposited data

How the results depend on the processing

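Results for the members named or called, and counts of calls, were recomputed under other settings: other scalings, no filter, DESeq2 1.42.0, limma-voom 3.58.1, a fit of the 2 groups compared only, the replicate block, each library of the 2 groups compared left out in turn, and, for 3 of the 6 comparisons, the authors' deposited values. Counts over the lists were recomputed under the scalings, the filter and the tools only. Of the member results called, 1114 values under the other settings and 707 without 1 library kept their call, 42 and 109 missed the threshold, and 0 changed sign. Of the member results not called, 36 values under the other settings and 13 without 1 library passed the threshold. Same-numbered libraries correlated above 0.1 in all 3 pairs only for the sid2-1 line and Col-0, which does not settle whether they were paired. With the number as a replicate block, 27 members were called in TPR1-GFP against Col-0. In the sid2-1 and eds1-2 lines against TPR1-GFP 9 and 33 were called, and 28 between the double lines. Against Col-0 the sid2-1 and eds1-2 lines then had 23 and 13. By the authors' deposited values 18 members were higher and 9 lower in TPR1-GFP against Col-0, 8 and 2 in the sid2-1 line and 14 and 19 in the eds1-2 line against TPR1-GFP. The count of 9 in the sid2-1 line against TPR1-GFP ran from 3 to 5 without 1 of 5 libraries. The count over the 5 lists in the eds1-2 line against Col-0 was 9, beside 17.5% of all genes tested. These lists held 17, 7, 11, 4 and 13 tested genes. With the DESeq2 Wald test the count was 14, and the share of all genes under that test is not given here. The cause was not tested.

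All values that changed sign belong to results that had missed the threshold. Without scaling beyond the library total, *GSTU7*, *GSTT2* and *AT5G44000* in TPR1-GFP against Col-0 had 0.018, 0.18 and 0.021, *GSTF12* in the sid2-1 line against TPR1-GFP had −0.013, and *GSTU13* in the eds1-2 line against Col-0 had 0.002. With upper-quartile scaling *GSTF10* in TPR1-GFP against Col-0 had −0.046. In TPR1-GFP against Col-0, the range without 1 library was *GSTF10* −0.02 to 0.104, *GSTT2* −0.125 to 0.001 and *GSTU17* −0.433 to 0.065. In the sid2-1 line against TPR1-GFP, the range without 1 library was *AT5G44990* −0.475 to 0.119, *GSTF11* 0 to 0.565, *GSTF12* −0.235 to 0.323, *GSTU11* −0.012 to 0.506 and *GSTU8* −0.081 to 0.277. For the eds1-2 line against TPR1-GFP, the range without 1 library was *GSTU24* −0.448 to 0.349. Against Col-0 in the eds1-2 line, the range without 1 library was *GSTU10* −1.229 to 0.482, *GSTU13* −0.214 to 0.066, *GSTU4* −1.962 to 0.096, *GSTU8* −1.504 to 0.371 and *GSTZ1* −0.319 to 0.148. Few counts limit the precision for members such as *GSTU11*, *AT5G44990* and *GSTU9*.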

Other observations

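Beside *GSTF12*, genes that make and colour anthocyanins were read from the same fit. The 18 genes were listed after the *GSTF12* values were seen, 14 of them were tested, and the list as such was not tested. Several of the 14 passed the filter on low counts only through the eds1-2 libraries: outside that line a library held at most 20 counts of *DFR*, 10 of *LDOX* and 15 of *UGT79B1*. No count of calls over the list is therefore given, and no p-value is given for these named genes. *DFR*, the reductase that commits flavonoids to anthocyanins, had 83.6, 61.5 and 83.1 CPM in the eds1-2 line, against 0.719, 0.172 and 0.0398 CPM in TPR1-GFP (log2 change 7.92, SE 0.42). *LDOX*, which acts in the next step, had 52.2, 44.3 and 56.2 CPM in the eds1-2 line, against 0.323, 0.201 and 0.0398 CPM in TPR1-GFP (log2 change 8.01, SE 0.39). *UGT79B1*, which adds a sugar to anthocyanins, had 42.7, 23.6 and 41.6 CPM in the eds1-2 line, against 0.0719, 0.143 and 0.0398 CPM in TPR1-GFP (log2 change 8.55, SE 0.41). In each of these the eds1-2 libraries were far above all others. Those libraries also carried the genes through the filter, so the contrast is description only. The regulator gene *PAP1* had 16.0, 22.6 and 19.8 CPM in the eds1-2 line, against 1.69, 2.03 and 2.75 CPM in TPR1-GFP (log2 change 3.18, SE 0.34, adjusted p = 2.85e-05). *TTG1*, also on the list, went the other way, with 46.2, 55.7 and 47.8 CPM in the eds1-2 line, against 75.6, 87.8 and 88.8 CPM in TPR1-GFP (log2 change −0.75, SE 0.12, adjusted p = 0.000347).

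*DFR* had 0.1, 0.398 and 0.202 CPM and *LDOX* 0.05, 0.447 and 0.404 CPM in Col-0, for log2 changes of 8.33 (SE 0.45) and 7.35 (SE 0.38). *CHS*, the entry enzyme of flavonoid synthesis, was not called there, with 145, 145 and 145 CPM in the eds1-2 line, against 38.8, 24.4 and 87.8 CPM in Col-0 (log2 change 1.52, SE 0.49, adjusted p = 0.0545). These groups did not overlap. Against TPR1-GFP, *CHS* was higher in the eds1-2 line (log2 change 5.56, SE 0.61, adjusted p = 3.58e-05). In TPR1-GFP against Col-0 it was lower (log2 change −4.0, SE 0.58, adjusted p = 0.000193). In the sid2-1 line *DFR* had 0.402, 0.165 and 0.203 CPM.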
